A study of Homo sapiens with 2 samples.

Results

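The cholesterol synthesis and SREBP2 control genes comprised 30 genes, chosen by gene symbol out of the 58174 genes listed for both RNA-seq libraries. The list was drawn up with the TPM values of these libraries already known, so the values below describe the genes and carry no test. PLC-8024 is an established line of human HCC cells, and its tissue label is liver. Cells of the genotype Control (PLC-8024-CTR, the control cells) were set against cells of the genotype GDF1-overexpression (PLC-8024-GDF1, the GDF1 cells). The GDF1 cells were stably transduced with virus carrying human GDF1, a secreted ligand of the TGF-β superfamily, and selected with puromycin. The control cells had received a control vector, according to the paper. Each genotype had 1 library, so differences could not be set against replicate error. The deposited values are headed as mean TPM, and no pooling of samples is described. Values are TPM, transcript levels scaled by gene length and library total that can therefore be compared between genes. Changes are GDF1 cells over control cells as log2((TPM + 1)/(TPM + 1)), and a gene is said to rise or fall only where this value passed 2-fold (over 1 or under -1).

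Cholesterol is assembled from acetyl-CoA. The mevalonate arm makes isoprenoid units and joins them to farnesyl diphosphate, and a second series of enzymes turns this into squalene, lanosterol and finally cholesterol. SREBP2, encoded by SREBF2, is held in the endoplasmic reticulum with its escort SCAP by the INSIG proteins while sterols are plentiful, and is released to activate the genes of the whole pathway together when sterols run low. The related SREBF1 is better known for its fatty acid targets. Hepatocytes are a main site of cholesterol synthesis and of lipoprotein traffic.

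All 30 genes were found in both libraries and 29 passed the minimum of 1 TPM in one or the other library and were compared. Of these, 1 rose (HMGCS1) and 2 fell (MSMO1 and SOAT1), while 26 stayed within 2-fold. Across all 14929 genes that passed this minimum, 4.82% rose and 9.61% fell, against 3.45% and 6.90% of the 29 genes, so the number past 2-fold was not above the background. The median log2 change was -0.13 for the 29 genes and -0.20 for all genes compared, and the median absolute log2 change was 0.32 and 0.44, respectively. Because the median of all genes lay below 0, positions relative to it are also given. By that measure, 16 of the 29 genes lay above the median of all genes and 13 below it. The log2 changes were also computed under 5 alternative settings, among them the TPM of GDF1 cells rescaled by 1.15 to bring the median ratio of genes with at least 5 TPM to 1 (rescaled), and the trend of the log2 change on GC content subtracted. In bulk RNA, fewer cells with a transcript and less of it per cell cannot be told apart.

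**Figure D1:**
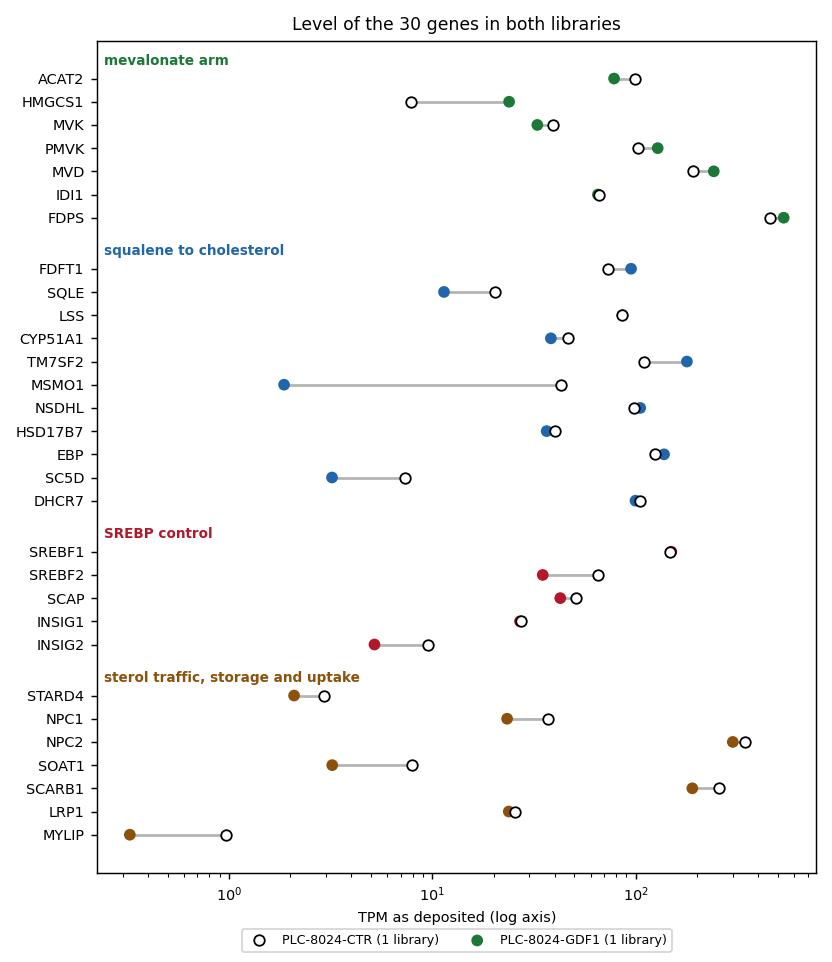
TPM of the 30 genes (log axis) in control cells (open circles) and GDF1 cells (filled circles, coloured by role), in pathway order, 1 library each. Most pairs lie close together, while HMGCS1 moved from 7.88 to 23.9 TPM and MSMO1 from 42.9 to 1.87 TPM.

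In the mevalonate arm, 1 of 7 genes rose, none fell, and the median log2 change was 0.23. HMGCS1 encodes the cytosolic synthase that condenses acetoacetyl-CoA with acetyl-CoA to HMG-CoA. It was listed at 7.88 TPM in control cells and 23.9 TPM in GDF1 cells, a log2 change of 1.48 (1.68 above the median of all genes). In control cells it was the lowest of the 7 genes of the arm and ranked 27 of the 30 genes by TPM, and in GDF1 cells it ranked 21. Of the 14929 genes compared, 254 had a higher log2 change. HMGCS1 (ENSG00000112972) is a minus-strand gene of chromosome 5, spanning 43287572 to 43313614 in GRCh37. The antisense gene AC114947.2 covers 37.7% of its exon bases and was listed at 2.68 and 4.49 TPM. Whether the counting used strand is not given in the sources used here, and summing both genes gives a log2 change of 1.34.

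The other 6 genes of the arm stayed within 2-fold. ACAT2, the thiolase that supplies acetoacetyl-CoA, was listed at 98.9 and 78.3 TPM in control and GDF1 cells (log2 change -0.33, and 0.034 with the GC trend subtracted), and TCP1 (126 and 70.4 TPM) covers 17.2% of its exon bases on the opposite strand. The mevalonate kinase gene MVK was listed at 39.1 and 32.8 TPM, a log2 change of -0.25. PMVK, which adds the next phosphate, was listed at 102 and 128 TPM (log2 change 0.32), and MVD, the decarboxylase that yields isopentenyl diphosphate, at 191 and 242 TPM (0.34). These neighbours of the same arm thus lay on either side of 0. IDI1, which isomerises isopentenyl diphosphate, was level at 65.7 and 65.2 TPM (log2 change -0.010, turning positive under the alternative scalings). FDPS, the farnesyl diphosphate synthase, was listed at 456 and 534 TPM (0.23) and had the highest TPM of the 30 genes in both libraries. The FDPS level was 57.8 times that of HMGCS1 in control cells and 22.4 times in GDF1 cells. Summed over the 7 genes, the arm had 961 TPM in control cells and 1104 TPM in GDF1 cells.

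In the series from squalene to cholesterol, none of 11 genes rose, 1 fell, and the median log2 change was -0.071. MSMO1 encodes the methylsterol monooxygenase that starts the removal of the methyl pair on the sterol A ring. It was listed at 42.9 TPM in control cells and 1.87 TPM in GDF1 cells, a 23.0-fold lower plain TPM and a log2 change of -3.94 (-3.74 relative to the median of all genes). Among all 14929 genes compared, 10 had a lower log2 change. Its rank by TPM among the 30 genes went from 18 to 29. MSMO1 (ENSG00000052802) is a plus-strand gene of chromosome 4, spanning 166248819 to 166264316 in GRCh37, and its exons overlapped those of no other gene with at least 1 TPM. HMGCS1 and MSMO1 changed places. The TPM of HMGCS1 was 0.184 times that of MSMO1 in control cells and 12.8 times in GDF1 cells.

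NSDHL and HSD17B7 encode the dehydrogenase and the ketoreductase that act with MSMO1 in the same demethylation. NSDHL was listed at 98.5 and 105 TPM in control and GDF1 cells (log2 change 0.094). HSD17B7 was listed at 39.9 and 36.5 TPM (log2 change -0.13, and 0.076 when rescaled). The level of NSDHL was 2.30 times that of MSMO1 in control cells and 56.4 times in GDF1 cells, and for HSD17B7 the corresponding values were 0.931 and 19.5 times. MSMO1 was thus the only one of these 3 genes past 2-fold. The pseudogene HSD17B7P2, which could share reads with HSD17B7, was listed at 6.31 and 5.40 TPM.

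SC5D, the sterol desaturase that works near the end of the series, lay just inside 2-fold. It was listed at 7.31 TPM in control cells and 3.21 TPM in GDF1 cells, a log2 change of -0.98, and passed 2-fold with the plain TPM ratio (-1.19), while it was -0.82 when rescaled and -0.54 with the GC trend subtracted. Like MSMO1, its product belongs to the membrane-bound sterol oxidases that take electrons from cytochrome b5. DHCR7, the reductase that completes cholesterol from the product of SC5D, was listed at 105 and 99.7 TPM (log2 change -0.071, and 0.13 when rescaled). The level of DHCR7 was 14.3 times that of SC5D in control cells and 31.0 times in GDF1 cells. SQLE, the squalene epoxidase, was listed at 20.3 and 11.4 TPM, a log2 change of -0.78 that ranged from -0.83 to -0.52 over all settings. SC5D and SQLE had, after MSMO1, the lowest log2 changes among the 11 genes.

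The remaining enzymes lay nearer to 0 or above it. FDFT1, which joins farnesyl diphosphate to squalene, was listed at 72.7 and 94.9 TPM in control and GDF1 cells (log2 change 0.38). LSS, the lanosterol synthase, was listed at 85.6 and 86.1 TPM (0.0069), and CYP51A1, the lanosterol demethylase, at 46.4 and 38.3 TPM (-0.27, and 0.12 with the GC trend subtracted). TM7SF2, a sterol reductase that acts after CYP51A1, had the second highest log2 change of the 30 genes, 0.69, from 110.1 to 178.5 TPM. LBR, the lamin B receptor with the same reductase activity, was listed at 13.2 and 7.76 TPM (-0.70), so that the TPM of TM7SF2 was 8.32 times that of LBR in control cells and 23.0 times in GDF1 cells. The sterol isomerase gene EBP was listed at 124 and 138 TPM (0.15). The summed TPM of the 11 genes was 753 in control cells and 793 in GDF1 cells. Of the 11 genes, 6 (54.5%) had a log2 change below 0, against 63.3% of all genes compared.

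**Figure D2:**
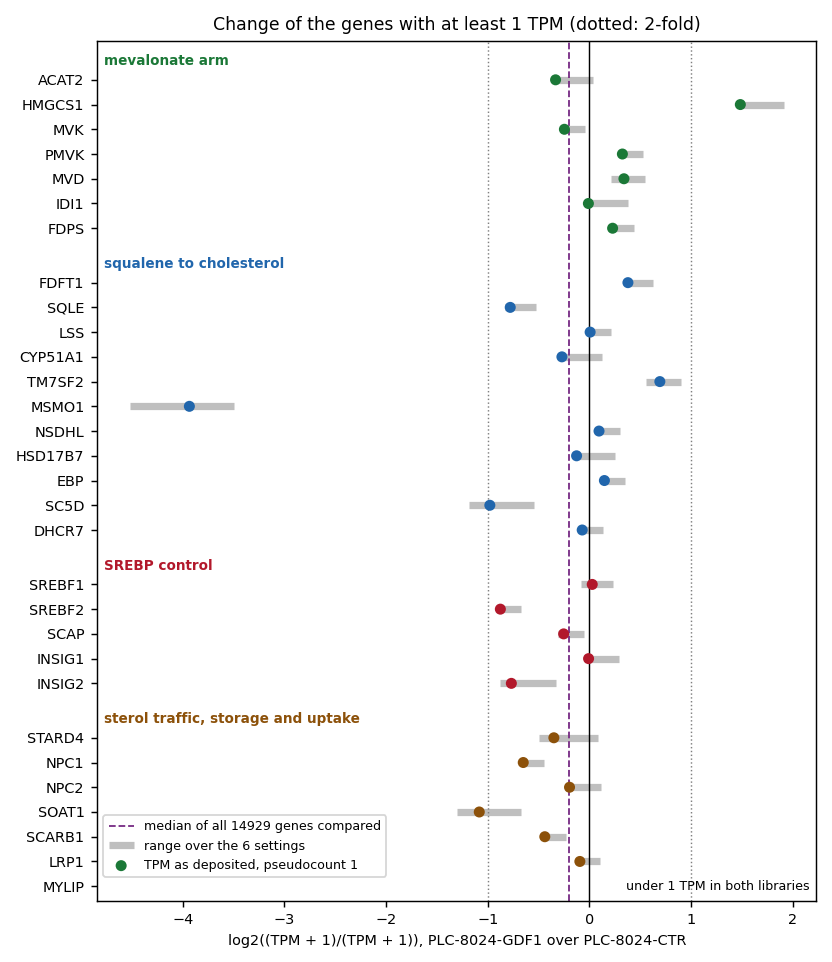
Log2 change of the 29 genes compared (points, coloured by role), with the range over 6 settings of the calculation (grey bars), the 2-fold lines (dotted) and the median of all genes compared (dashed, -0.20). HMGCS1 stayed above 2-fold at 1.48 to 1.91 and MSMO1 below it at -4.52 to -3.50, while the bar of SOAT1 crosses the lower 2-fold line.

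Of the 5 SREBP control genes, none passed 2-fold, and the median log2 change was -0.25. SREBF2 was listed at 64.9 TPM in control cells and 34.9 TPM in GDF1 cells, a log2 change of -0.88 that stayed between -0.89 and -0.67 over all settings. SREBF2 (ENSG00000198911) spans 42229109 to 42303310 on chromosome 22 of GRCh37, and AL021453.1 (3.34 and 3.07 TPM) covers 9.08% of its exon bases. SREBF1 was listed at 147 and 149.7 TPM (log2 change 0.028, and -0.078 with the GC trend subtracted). The level of SREBF1 was 2.26 times that of SREBF2 in control cells and 4.29 times in GDF1 cells. SCAP, the escort of the SREBPs, was listed at 50.9 and 42.6 TPM (-0.25). INSIG1, itself a target of SREBP2, was listed at 27.1 and 27.0 TPM (-0.0083, turning positive under the alternative scalings). INSIG2, the other retention protein, was listed at 9.55 and 5.19 TPM, a log2 change of -0.77. INSIG1 was listed at 2.84 times the level of INSIG2 in control cells and at 5.19 times in GDF1 cells. As deposited, SREBF2 and INSIG2 were thus the control genes farthest from 0, and both were lower in GDF1 cells. With the GC trend subtracted, INSIG2 was at -0.33, near SCAP (-0.31) and as far from 0 as INSIG1 (0.29) to within a small margin.

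The promoters of HMGCS1, MSMO1, SREBF2 and FDPS are printed because the first pair moved apart, SREBF2 encodes the shared regulator and FDPS is the most abundant target. The sequences are RefSeq promoters on GRCh38.p14, each reaching from upstream of a transcription start to just past it, and 33 such promoters of 26 of the 30 genes were at hand among 35116 in all. Both strands were searched for 5 motifs, and capitals mark the matches of the first 4, while the GC box GGGCGG is left in lower case. The 4 are the sterol regulatory element TCACNCCAC, the form TCACACGA known from FDPS, the E-box CACGTG and the CCAAT box CCAAT. The promoters lie at chr5:43313363-43313662 on the minus strand (HMGCS1, the upstream one of its starts), and on the plus strand at chr4:165327419-165327718 (MSMO1), chr22:41832855-41833154 (SREBF2) and chr1:155308616-155308915 (FDPS).
HMGCS1: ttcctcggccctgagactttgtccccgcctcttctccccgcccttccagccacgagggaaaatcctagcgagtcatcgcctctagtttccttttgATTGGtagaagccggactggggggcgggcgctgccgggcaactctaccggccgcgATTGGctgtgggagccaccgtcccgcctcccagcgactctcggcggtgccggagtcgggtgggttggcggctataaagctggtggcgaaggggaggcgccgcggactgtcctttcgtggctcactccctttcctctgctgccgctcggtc
MSMO1: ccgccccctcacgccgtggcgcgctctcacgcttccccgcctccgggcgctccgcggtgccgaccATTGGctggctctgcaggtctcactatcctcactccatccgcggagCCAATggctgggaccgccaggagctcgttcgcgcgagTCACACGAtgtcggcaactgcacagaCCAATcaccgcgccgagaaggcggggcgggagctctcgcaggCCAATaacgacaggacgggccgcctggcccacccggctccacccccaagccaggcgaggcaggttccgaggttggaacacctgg
SREBF2: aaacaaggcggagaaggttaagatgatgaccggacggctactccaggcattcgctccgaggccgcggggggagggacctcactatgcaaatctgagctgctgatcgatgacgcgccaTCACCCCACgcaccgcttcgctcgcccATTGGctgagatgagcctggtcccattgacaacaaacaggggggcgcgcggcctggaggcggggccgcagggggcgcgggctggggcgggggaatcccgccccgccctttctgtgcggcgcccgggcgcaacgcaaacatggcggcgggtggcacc
FDPS: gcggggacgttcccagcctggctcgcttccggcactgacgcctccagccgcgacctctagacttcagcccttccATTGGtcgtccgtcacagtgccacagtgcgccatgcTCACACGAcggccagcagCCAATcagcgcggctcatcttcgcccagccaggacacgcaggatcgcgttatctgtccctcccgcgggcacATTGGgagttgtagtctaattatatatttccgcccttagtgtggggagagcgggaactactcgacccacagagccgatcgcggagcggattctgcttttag

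TCACNCCAC was found in 1.13% of all promoters and, among the 26 genes, in SREBF2 alone, at position -133 from the start. TCACACGA was found in 0.234% of all promoters and among the 26 genes in MSMO1, at -102, and FDPS, at -140. The form TCACACGA is known from FDPS, so the match in FDPS was fixed in advance. The log2 changes were -3.94 for MSMO1 and 0.23 for FDPS, and a part of these letters in them was not tested. CCAAT was found in 34.6% of all promoters and in 21 of the 33 promoters of the listed genes. These belong to 19 of the 26 genes, HMGCS1, MSMO1, SREBF2 and FDPS among them. CACGTG was found in 7.26% of all promoters and in 5 of the 33, those of SC5D, SCAP, INSIG1 and LSS. The promoters of SC5D overlap and hold the same CACGTG site. Promoters of other genes, such as NPC2, overlap as well, so a site can be counted more than once. GGGCGG was found in 45.0% of all promoters and in 31 of the 33, which belong to 25 of the 26 genes. A match describes the letters only, and these motifs were chosen with the TPM values known. Only exact letters close to a start were searched, so a missing match does not show that a gene lacks such an element. No promoter was at hand for ACAT2, FDFT1, SQLE and SCARB1.

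Of the 7 genes of sterol traffic, storage and uptake, 6 were compared. None of the 6 rose, 1 fell, and the median log2 change was -0.39. SOAT1, which esterifies cholesterol for storage, was listed at 7.94 TPM in control cells and 3.22 TPM in GDF1 cells, a log2 change of -1.08. SOAT1 (ENSG00000057252) is a plus-strand gene of chromosome 1, spanning 179262849 to 179327815 in GRCh37. SOAT1 no longer passed 2-fold when the TPM of GDF1 cells was rescaled (-0.92) or the GC trend was subtracted (-0.67). NPC1 and NPC2 act together in moving cholesterol out of lysosomes. NPC1 was listed at 37.2 and 23.3 TPM in control and GDF1 cells (log2 change -0.65), and NPC2 at 344 and 300.2 TPM (-0.20, and 0.011 when rescaled). NPC2 was listed at 9.25 times the level of NPC1 in control cells and at 12.9 times in GDF1 cells.

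SCARB1, the receptor for high-density lipoprotein, was the most abundant uptake gene, with 258 TPM in control cells and 189.8 TPM in GDF1 cells, a log2 change of -0.44. LRP1, a large endocytic lipoprotein receptor, was listed at 25.4 and 23.8 TPM (-0.094, and 0.11 when rescaled). STARD4, a cytosolic sterol carrier, was listed at 2.94 and 2.09 TPM (-0.35, and 0.081 with the GC trend subtracted). MYLIP, a ubiquitin ligase induced by liver X receptors that lowers lipoprotein uptake, was under 1 TPM in both libraries (0.963 and 0.326 TPM) and was left out of the counts. As deposited, all 6 genes had a log2 change below 0, as did 63.3% of all genes compared. Relative to the median of all genes, NPC2 (0.0026) and LRP1 (0.10) lay above it and the others below it. With MYLIP, the summed TPM of these genes went from 676 to 543 TPM.

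The log2 change of the genes varied with GC content. Across the 29 genes, Spearman's rho between the log2 change and the GC content of the longest transcript was 0.49, and across 11792 protein-coding genes with at least 1 TPM it was 0.33. These are values across genes of the same pair of libraries and the genes are not independent replicates. Protein-coding genes were split into 5 equal bins by GC content. In the bin with the lowest GC content, the median log2 change was -0.48 for all genes and -0.87 for the 6 genes of the list there. These 6 genes included HMGCS1 (39.0% GC, log2 change 1.48) and MSMO1 (37.4% GC, log2 change -3.94), which lay on opposite sides of the median of all genes in the bin. INSIG2 (36.3% GC), SC5D (36.9% GC) and SOAT1 (40.0% GC) lay below it and STARD4 (34.4% GC, log2 change -0.35) above it. In the bin with the highest GC content, the median was 0.11 for all genes and 0.028 for the 5 genes of the list. Beside GC content, the log2 change of the 29 genes went with the level in control cells (rho 0.48) and with transcript length (rho -0.42). Neither value was computed across all genes, so neither can be called particular to the list. The level in control cells is also part of the log2 change itself. The part of these properties in the single changes was not tested.

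**Figure D3:**
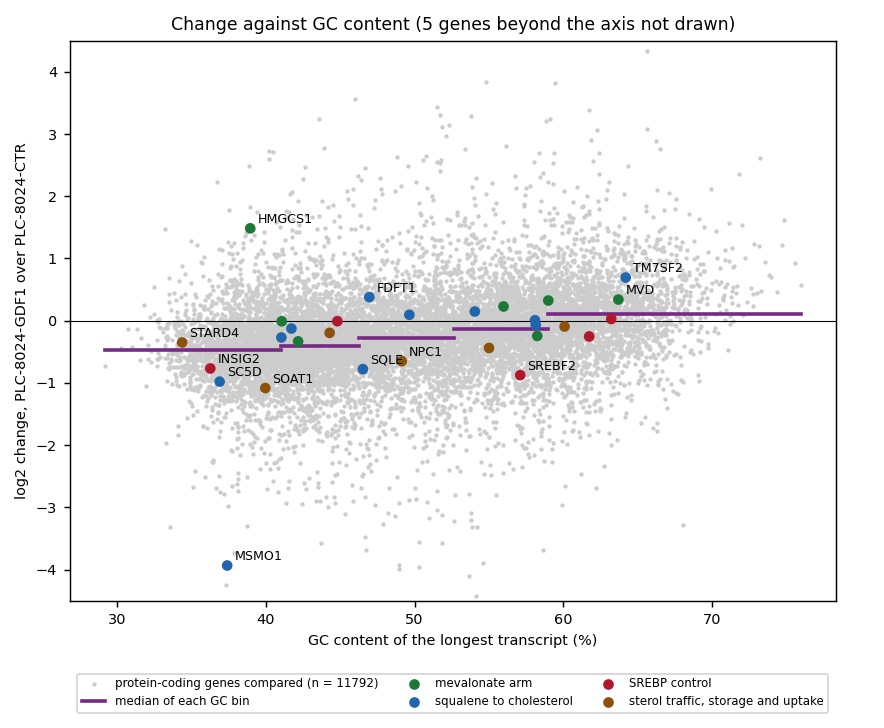
Log2 change against the GC content of the longest transcript for 11792 protein-coding genes (grey), with the median of each of 5 equal bins by GC content (purple bars) and the 29 genes (coloured by role). The bin medians climb from -0.48 to 0.11, and HMGCS1 and MSMO1 lie far from the median of their own bin, on opposite sides.

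Other genes of sterol metabolism were then counted in 5 further lists, and none of their genes rose, against 4.82% of all genes that rose and 9.61% that fell. With 1 or 2 genes that fell in each list, these counts are given as a description. Of 10 compared electron donors and partners of the sterol enzymes, 2 fell. CYB5A, the cytochrome b5 that supplies electrons to MSMO1 and SC5D, fell from 36.8 to 11.0 TPM (log2 change -1.66). Its reductase CYB5R3 fell from 42.4 to 17.4 TPM (-1.23). A4GALT (37.3 TPM in both libraries) shares 74 bases with it on the same strand, 0.708% of its exon bases. The pair summed gives -0.53, a value that includes the level TPM of A4GALT. CYB5B, the mitochondrial form, was listed at 63.2 and 71.2 TPM (0.17), and POR, the electron donor of CYP51A1 and SQLE, at 207.7 and 208.0 TPM (0.0020). Of 16 compared liver X receptor, oxysterol and sterol binding genes, NCEH1 fell, from 6.24 to 0.485 TPM (-2.28). NCEH1 hydrolyses the cholesterol esters that SOAT1 makes. It was the only gene past 2-fold in its list (6.25%) and had under 1 TPM in GDF1 cells. No value under the alternative settings is given for NCEH1.

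Of 15 compared genes of SREBP processing and sterol-regulated degradation in the endoplasmic reticulum, SEC24D fell, from 8.96 to 3.04 TPM (log2 change -1.30). SEC24D encodes a cargo adaptor of the COPII vesicles that carry SCAP and SREBP to the Golgi. Of 13 compared genes on the branches of the mevalonate pathway, 1 fell, the farnesyltransferase subunit FNTB (4.65 to 1.08 TPM, -1.44). MAX (12.6 and 13.7 TPM) covers 21.8% of the exon bases of FNTB on the opposite strand, and summing both genes gives a log2 change of -0.21, within 2-fold. Of 12 compared fatty acid genes under SREBP1, 2 fell, LPIN1 (the phosphatidate phosphatase, 2.87 to 0.532 TPM, -1.34) and MID1IP1 (a partner of acetyl-CoA carboxylase, 38.9 to 18.2 TPM, -1.06). The other 10 stayed within 2-fold. FASN (0.034), ACACA (0.050), ELOVL6 (0.024), FADS1 (-0.037) and FADS2 (-0.055) lay nearest to 0. ACSS2 (-0.84), ME1 (-0.48), GPAM (-0.40), SCD (-0.32) and ACLY (-0.24) lay lower. Of the 12 genes, 9 had a log2 change below 0, and their median was -0.28. The medians of the 5 lists lay between -0.34 and -0.16, around the median of all genes of -0.20.

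**Figure D4:**
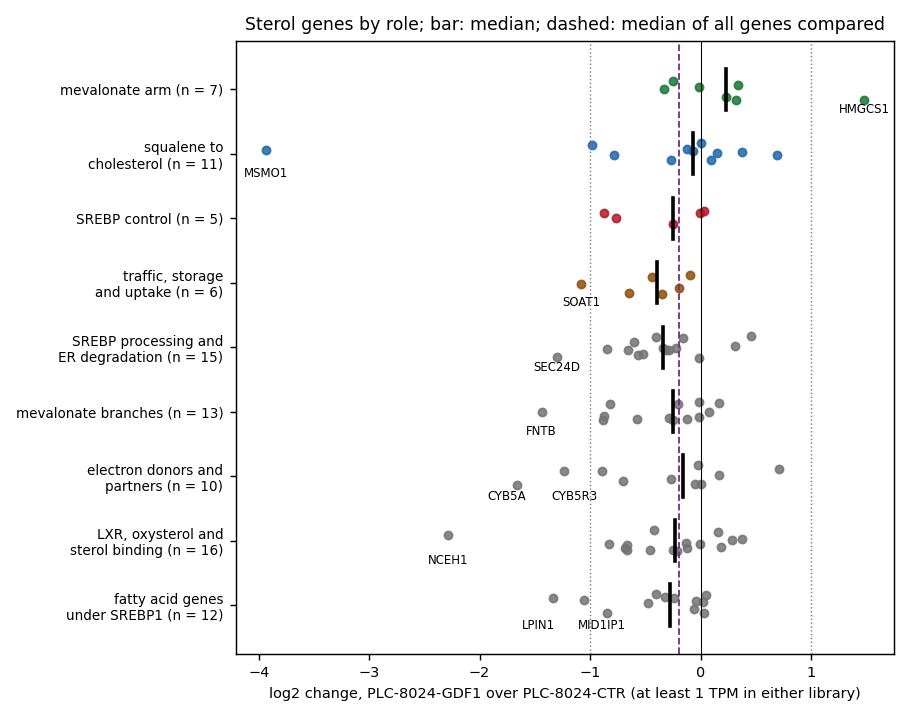
Log2 change of every gene with at least 1 TPM in the 4 roles (coloured) and in 5 further sterol lists (grey), with the median of each (black bar), the 2-fold lines (dotted) and the median of all genes compared (dashed). HMGCS1 is the only gene above the upper 2-fold line, and 9 genes, MSMO1 lowest of them, lie below the lower one.

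The libraries also differed in facts that touch all genes. GDF1, the introduced gene, was listed at 2.10 TPM in control cells and 4.64 TPM in GDF1 cells, a log2 change of 0.87 that is within 2-fold on this scale. CERS1, which shares a bicistronic transcript with GDF1, was listed at 13.3 and 9612 TPM (log2 change 9.39). How reads of the introduced sequence were divided between both genes was not tested. Of 9 hepatocyte markers, all were compared and 6 (66.7%) fell, against 9.61% of all genes compared. These were ALB, TTR, APOA1, APOA2, AHSG and HNF4A, with log2 changes between -3.90 and -1.02. TTR was low in both libraries, at 7.17 and 0.340 TPM. The summed level of the 9 markers went from 8718 to 6370.5 TPM. The other markers FGB, TF and AMBP stayed within 2-fold and had between 1434 and 2491 TPM in GDF1 cells. The part of this difference in the sterol genes was not tested.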

How the data were processed

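RNA-seq was analysed for 1 library of each line, PLC-8024-CTR and PLC-8024-GDF1. The authors selected mRNA with poly-T beads, sequenced it paired-end, filtered the reads with Trimmomatic 0.36, aligned them to hg19 with HISAT2 2.1.0, quantified them with StringTie 1.3.3b and deposited TPM values per gene. TPM keeps no depth, so no counting error is given. RefSeq is named as the annotation, but the gene identifiers are those of Ensembl.

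The libraries were joined by gene identifier, and log2 changes used a pseudocount of 1 TPM, a minimum of 1 TPM in one or the other library and a threshold of 2-fold. Positions, exons and GC content came from GENCODE v44 on GRCh37, and the trend on GC content is a lowess fit (span 0.3, 14640 genes). Promoters came from RefSeq on GRCh38.p14. Python 3.11.15, pandas 2.3.3, numpy 2.4.6, scipy 1.17.1, statsmodels 0.14.6 and matplotlib 3.10.9 were used. Only the 2-fold calls and the rescaling factor were tested on simulated data, and planted changes were scored only in genes of higher TPM. The GC trend and the exon overlaps were not tested in this way.

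The 30 genes and the other lists were chosen with earlier results of these data known. All 30 were named. Of the other lists, genes past 2-fold with at least 5 TPM in either library were named. LBR, POR, CYB5B, FNTB, LPIN1 and the fatty acid genes within 2-fold were added after their values were seen. The alternatives for single genes were a pseudocount of 0.1 TPM, the plain TPM ratio, rescaled TPM, TPM rescaled without GDF1 and CERS1, and the GC trend subtracted. The counts and the median were also taken with a minimum of 5 TPM or none, and with genes with shared exons left out.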

Additional observations from a re-analysis of the deposited data

How the results depend on the processing

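No paired analysis was possible because the groups hold 1 library each, and TPM carries no depth, which limits genes under about 5 TPM most. HMGCS1 and MSMO1 stayed past 2-fold, in their direction, under each of the 5 alternative calculations for single genes. With the TPM of PLC-8024-GDF1 multiplied by 1.15, so that the median log2 ratio of genes with at least 5 TPM was 0, 1 gene fell instead of 2, the median of the 29 log2 changes was 0.076 instead of -0.13, and log2 changes near 0 turned positive for IDI1 (0.19), HSD17B7 (0.076), DHCR7 (0.13), INSIG1 (0.19), NPC2 (0.011) and LRP1 (0.11), while across all genes 6.97% then rose, 6.85% fell and the median was -0.025. With the GC trend subtracted, 1 gene fell, the median was 0.048, and the sign turned for ACAT2 (0.034), IDI1 (0.38), CYP51A1 (0.12), HSD17B7 (0.25), SREBF1 (-0.078), INSIG1 (0.29), STARD4 (0.081) and NPC2 (0.12), while across all genes 6.29% rose, 6.05% fell and the median was -0.0079. Both settings add a shift to the log2 change of each gene, which turns values this small. With TPM rescaled without GDF1 and CERS1, IDI1 (0.0035) and INSIG1 (0.0051) turned. A pseudocount of 0.1 TPM or the plain TPM ratio made SC5D the third gene to fall, while the share of all genes that fell went from 9.61% to 15.5% and 16.1%. With the genes that share exon bases with another expressed gene left out, 18 genes were left and 0 rose, because HMGCS1 is among those left out. A minimum of 5 TPM and no minimum left both counts at 1 and 2.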
